A study of Homo sapiens with 54 samples.

Results

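Aminoacyl-tRNA synthetases are the enzymes that load each tRNA with its amino acid, and 38 of the 38137 genes in the count table encode one. Members were taken by symbol, a one-letter amino acid code followed by ARS with no digit or 1, 2 or 3, plus EPRS1, FARSA, FARSB and FARS2, where the gene product names a tRNA, which held for all 38. Of these, 20 carry no digit or a 1 and encode the cytosolic enzymes, 17 carry a 2 and encode the mitochondrial enzymes, and TARS3, a further threonine enzyme, carries a 3. All 38 passed the low-count filter.

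The RNA came from HEK293T cells, a human embryonic kidney line with a wild-type genotype in the labels, harvested 48 h after transient transfection (the time in the labels; the study's text gives a later one). Cells had received a plasmid for an RNA-guided ribonuclease, native RfxCas13d (WT) or its high-fidelity variant RfxCas13d-N2V7 (N2V7) or RfxCas13d-N2V8 (N2V8), with one of several crRNAs, the short RNAs that direct the enzyme to a transcript. The crRNA was crRNA 13, which targets the C9ORF72 transcript (S13), one of the additional crRNAs S3, S4 and S7, or a non-targeting crRNA (NTG). The labels name no target for S3, S4 and S7, and the study lists C9ORF72 crRNAs under the same numbers. Cells treated with the antisense oligonucleotides ASO2 or ASO4 and untransfected cells (UT) completed 18 groups of 3 libraries, 54 in all. The study used both oligonucleotides against C9ORF72, ASO4 against all of its main transcript variants. The effector was driven by the ubiquitous CAG promoter and the crRNA by the U6 promoter, and the whole well was sequenced, so that cells without plasmid are part of every transfected sample. In such bulk RNA, fewer cells expressing a gene and less of its RNA per cell cannot be told apart. Libraries held between 9546826 and 15099153 estimated counts. C9ORF72, the targeted gene, is counted over all its transcripts and so does not show the targeted variant alone. It lay at 25.9 to 26.7 CPM (counts scaled to a common library size) in WT_S13 and 25.6 to 33.2 CPM in WT_NTG libraries, at 28.7 to 31.6 CPM in N2V7_S13 and 27.0 to 31.2 CPM in N2V7_NTG, at 24.6 to 26.3 CPM in N2V8_S13 and 25.2 to 27.8 CPM in N2V8_NTG, and at 10.5 to 11.9 CPM in ASO4 and 27.5 to 30.02 CPM in UT libraries. The markers of HEK293T cells were present in every library, with VIM at 794 to 1358 CPM and PAX2 at 2.14 to 9.13 CPM, while among markers of other cell types INS (islet) was at 0 in all 54 libraries, TH in 50, PTPRC (blood) in 48 and ALB (liver) in 33, and MYOD1 (muscle) was counted in every library at 0.0964 to 1.17 CPM. N2V7_S4 replicate 2 stood apart from its group and held the lowest share of ribosomal RNA counts, at 0.899%.

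Each synthetase recognizes its own amino acid and the tRNAs that match it. Human cells keep separate nuclear genes for most of the cytosolic and mitochondrial enzymes, while GARS1 and KARS1 each encode both forms and EPRS1 joins the glutamate and proline activities in a single protein. In the cytosol 8 of the enzymes, among them EPRS1, IARS1, LARS1, MARS1, QARS1, RARS1 and KARS1, sit together in the multisynthetase complex. Many cytosolic synthetase genes are known targets of ATF4, the transcription factor of the amino acid and unfolded protein stress response, which with C/EBP proteins binds an element whose core is TGATGNAA. A list of 12 cytosolic enzymes with this link (AARS1, CARS1, EPRS1, GARS1, IARS1, LARS1, MARS1, NARS1, SARS1, TARS1, WARS1 and YARS1) was set beside the other 8. The list was drawn from background knowledge with earlier results of these data known. Its medians and counts are a description and not an independent test.

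The promoters that hold this core are shown because they belong to CARS1, GARS1, AARS1 and other genes on which the results turn. RefSeq windows (GRCh38.p14, 250 bases before to 50 after each start) matched 30 of the 38 members, and 8 of the 30 held the core on either strand, 7 of 16 cytosolic genes (43.8%) and 1 of 14 mitochondrial genes (7.14%). Among the tested genes with a window the share was 2.78%, and among all genes with a window 4.46%. Capitals mark the core, read 5′ to 3′ on the strand of the gene. NARS1 and YARS2 hold it on that strand and the other 6 on the opposite strand.
TARS1, chr5:33440957-33440984, plus strand: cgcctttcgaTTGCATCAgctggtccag
GARS1, chr7:30594835-30594862, plus strand: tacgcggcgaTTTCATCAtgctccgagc
IARS1, chr9:92293693-92293720, minus strand: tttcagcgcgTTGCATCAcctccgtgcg
CARS1, chr11:3057408-3057435, minus strand: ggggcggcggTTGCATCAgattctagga
MARS1, chr12:57488054-57488081, plus strand: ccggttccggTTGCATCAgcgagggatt
AARS1, chr16:70289676-70289703, minus strand: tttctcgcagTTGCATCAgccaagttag
NARS1, chr18:57621805-57621832, minus strand: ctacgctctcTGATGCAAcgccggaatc
YARS2, chr12:32756077-32756104, minus strand: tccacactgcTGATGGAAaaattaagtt
In TARS1, IARS1, CARS1, MARS1 and NARS1 the core began within 15 bases of the start, at 3, -13, -2, -4 and 15, and in GARS1 it began at -33. In AARS1 and YARS2 it lay farther out, at -187 and -197. A match of these letters is a description of the window and not a binding site. YARS1, VARS1, TARS3, AARS2, LARS1 and VARS2 were among the members with no entry.

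In untransfected cells the cytosolic enzymes were the more abundant. On a per-length scale (CPM per kb of the MANE Select transcript) the 20 cytosolic genes had a median level of 110.1 (range 23.4 to 242) and the 17 mitochondrial genes a median of 11.6. SARS1, the serine enzyme, stood highest at 242 ± 7.47 CPM per kb (SD, n = 3, as for all means that follow). TARS1 (threonine, 204), AARS1 (alanine, 192), IARS1 (isoleucine, 189) and GARS1 (glycine, 188) came next, and their libraries overlapped with a neighbour in this order. IARS2, the mitochondrial isoleucine enzyme, at 71.4 ± 2.52 CPM per kb, stood above 7 of the cytosolic genes, while FARS2, the mitochondrial phenylalanine enzyme, was lowest at 3.67 ± 0.176. Along the order of all 38 genes, 22 of the 37 neighbouring pairs had overlapping libraries and so could not be ranked. The enzymes that share the amino acid tyrosine, YARS1 and YARS2, lay at 168 and 13.6 CPM per kb.

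**Figure D1:**
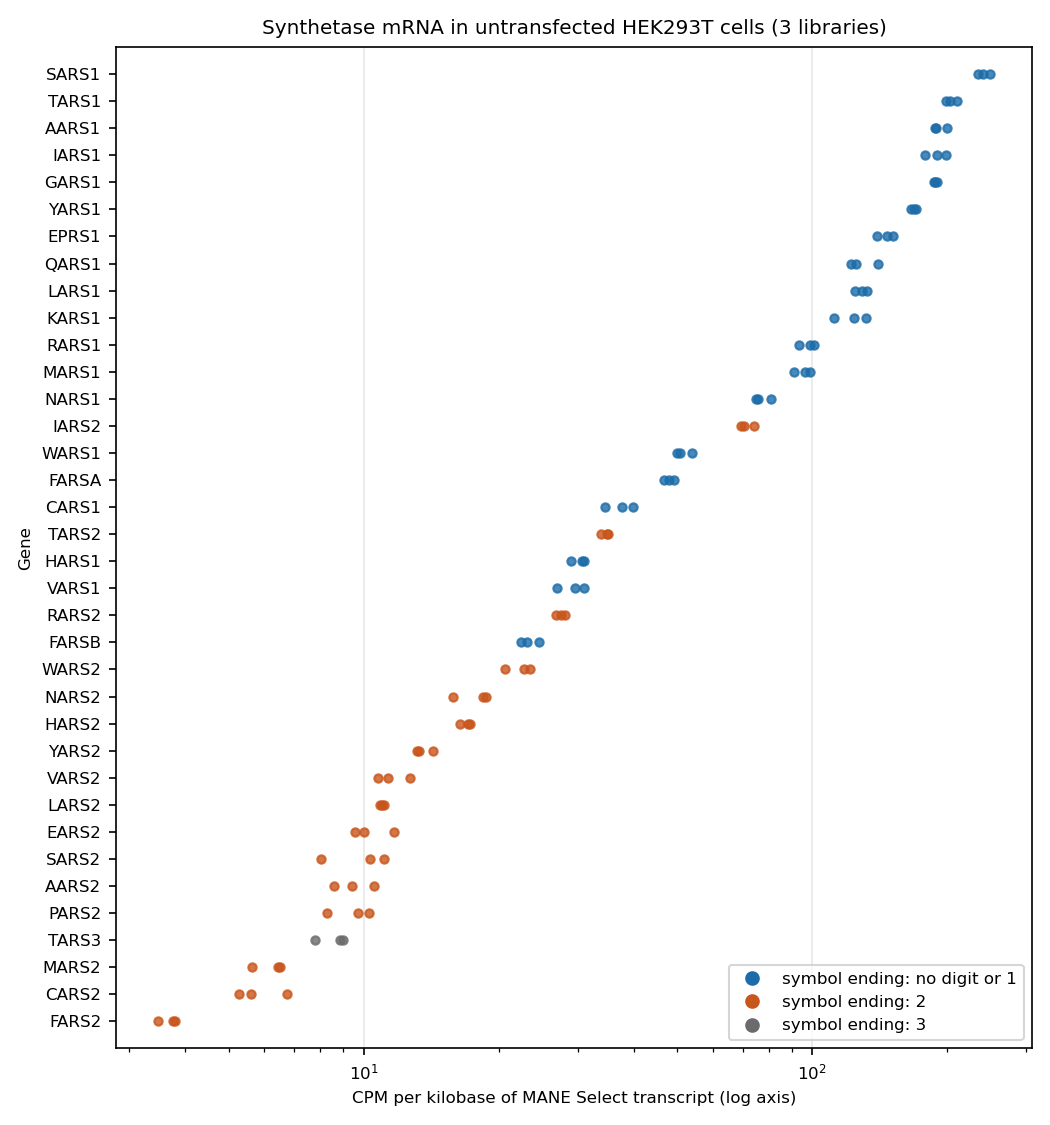
Level of 36 of the 38 synthetase genes in the 3 untransfected libraries, in CPM per kb of transcript on a log axis, ordered by the mean; points are libraries and colours give the compartment. Cytosolic genes fill the upper part, from SARS1 at 242 down, and FARS2 is lowest at 3.67.

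With native RfxCas13d, crRNA S13 was accompanied by less RNA for 3 cytosolic synthetases, AARS1, CARS1 and IARS1, and more for MARS2, the mitochondrial methionine enzyme. A gene was called here and below at a fold change over 1.25 and an adjusted p under 0.05 in edgeR's quasi-likelihood test, adjusted by Benjamini-Hochberg over all tested genes and the comparisons of a family. These calls are 2.63% of the 38 members higher and 7.89% lower, beside 6.53% higher and 4.24% lower among the 15378 genes tested. AARS1 had 485, 485 and 534 CPM in the WT_S13 libraries, against 651, 664 and 668 CPM in the WT_NTG libraries. The groups did not overlap, and the log2 change was -0.40 ± 0.05 (SE; adjusted p = 1.49e-07). CARS1, the cysteine enzyme, had 82.8, 89.7 and 97.8 CPM in WT_S13 cells and 119, 117 and 119.7 CPM in WT_NTG cells, again without overlap. It fell by a log2 change of -0.40 ± 0.07 (adjusted p = 1.42e-05). IARS1, a member of the multisynthetase complex, had 649, 650.5 and 733 CPM in WT_S13 and 836, 869 and 853 CPM in WT_NTG libraries (-0.33 ± 0.06, adjusted p = 2.63e-05). Its change lay close to the fold threshold, and it fell short of it without WT_S13 replicate 1 (-0.30), WT_S13 replicate 2 (-0.30) or WT_NTG replicate 2 (-0.32). MARS2 had 21.6, 24.8 and 21.8 CPM in WT_S13 libraries, against 18.2, 16.2 and 15.8 CPM in WT_NTG libraries, a log2 change of 0.44 ± 0.09 (adjusted p = 0.000201, and 0.0509 without the factor of unwanted variation).

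The remaining 34 members did not pass in WT_S13, although 12 of the 38 had an adjusted p under 0.05 when no fold was asked. All 12 ATF4-linked enzymes had a negative log2 change, with a median of -0.20, while the other 8 cytosolic enzymes had a median of 0.04 and the mitochondrial enzymes of -0.003, beside 0.003 over all genes tested. Summed over the 20 cytosolic enzymes, the level was 6031, 5899 and 6309 CPM in WT_S13 and 6799, 6940 and 6859 CPM in WT_NTG libraries, which did not overlap. The 17 mitochondrial enzymes summed to 1156, 1130 and 1112 CPM in WT_S13 and 1074, 1131 and 1107 CPM in WT_NTG libraries, which did.

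With N2V7, crRNA S13 was accompanied by more RNA for 4 cytosolic enzymes, GARS1, TARS1, SARS1 and CARS1, and for the mitochondrial tryptophan enzyme WARS2, and by less for AARS2, the mitochondrial alanine enzyme. These 5 higher members are 13.2% of the 38 and the 1 lower member 2.63%, beside 3.67% higher and 7.77% lower among all genes. GARS1 had 439.5, 507 and 469.8 CPM in N2V7_S13 libraries, against 364, 352 and 392 CPM in N2V7_NTG libraries, with no overlap (0.35 ± 0.05, adjusted p = 3.28e-07). TARS1 had 571, 599 and 558 CPM in N2V7_S13 and 454, 444 and 467 CPM in N2V7_NTG libraries, the tightest of the calls (0.34 ± 0.04, adjusted p = 9.37e-09). SARS1 had 386, 388 and 377 CPM in N2V7_S13 and 300.3, 294 and 324 CPM in N2V7_NTG libraries (0.33 ± 0.05, adjusted p = 2.71e-06). CARS1, which fell with the native enzyme, was higher here. It had 125, 136 and 119 CPM in N2V7_S13 and 101, 93.0 and 109 CPM in N2V7_NTG libraries (0.32 ± 0.07, adjusted p = 0.000335). WARS2 had 59.8, 70.9 and 67.5 CPM in N2V7_S13 and 50.9, 53.5 and 53.7 CPM in N2V7_NTG libraries (0.32 ± 0.07, adjusted p = 0.000402). AARS2 went the other way, with 38.1, 37.7 and 34.0 CPM in N2V7_S13 libraries and 52.5, 47.1 and 47.5 CPM in N2V7_NTG libraries (-0.42 ± 0.08, adjusted p = 0.000119).

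The 5 rises in N2V7_S13 were small, and 1 library decided whether they passed. Without N2V7_S13 replicate 2, GARS1 (0.30), TARS1 (0.31), SARS1 (0.32), CARS1 (0.27) and WARS2 (0.27) stayed positive at adjusted p of 0.00815 or less but below the fold threshold, and AARS2 alone was called. Without N2V7_NTG replicate 2, GARS1 (0.32), SARS1 (0.30) and CARS1 (0.27) fell short; without N2V7_NTG replicate 1, SARS1 (0.31) and WARS2 (0.30) did; without N2V7_S13 replicate 1 SARS1 (0.32), and without N2V7_S13 replicate 3 WARS2 (0.31). SARS1 (0.32), CARS1 (0.315) and WARS2 (0.32) also fell short in a fit of only the compared libraries, and WARS2 with limma-trend (0.32). All 20 cytosolic enzymes had a positive log2 change, between 0.005 and 0.35, with a median of 0.27 for the 12 ATF4-linked and 0.12 for the other 8, beside 0.015 over all genes. The share of ribosomal RNA was 4.166% to 4.419% with N2V7_S13, against 1.757% to 3.075% with N2V7_NTG, and its part in these changes was not tested.

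With N2V8, crRNA S13 moved a single synthetase past the threshold. PARS2, the mitochondrial proline enzyme, had 20.7, 20.6 and 19.4 CPM in N2V8_S13 libraries, against 16.0, 13.5 and 16.6 CPM in N2V8_NTG libraries. The groups did not overlap (0.40 ± 0.09, adjusted p = 0.000754), and without N2V8_NTG replicate 2, the lowest library, the change was 0.315 and no longer past the fold threshold. In UT cells PARS2 averaged 22.2 CPM. The share of members higher was 2.63% and lower 0, beside 1.72% and 0.715% of all genes. At an unadjusted p under 0.05 the edgeR test listed 16 members, and limma and DESeq2 each called 1. When no fold was asked, 12 members had an adjusted p under 0.05 in N2V8_S13, beside 12 in WT_S13 and 16 in N2V7_S13. The single call in N2V8_S13 thus rests on the fold threshold. Without N2V8_NTG replicate 1, CARS1 (0.34) rose and YARS2 (-0.35) fell as well, and YARS2 also passed without N2V8_NTG replicate 2 (-0.35) or N2V8_S13 replicate 2 (-0.35). The 12 ATF4-linked enzymes had a median log2 change of 0.14 and the other 8 cytosolic enzymes of -0.12. Ribosomal RNA took 3.983% to 4.959% of counts in N2V8_S13 and 1.806% to 3.515% in N2V8_NTG libraries, and its part was not tested.

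**Figure D2:**
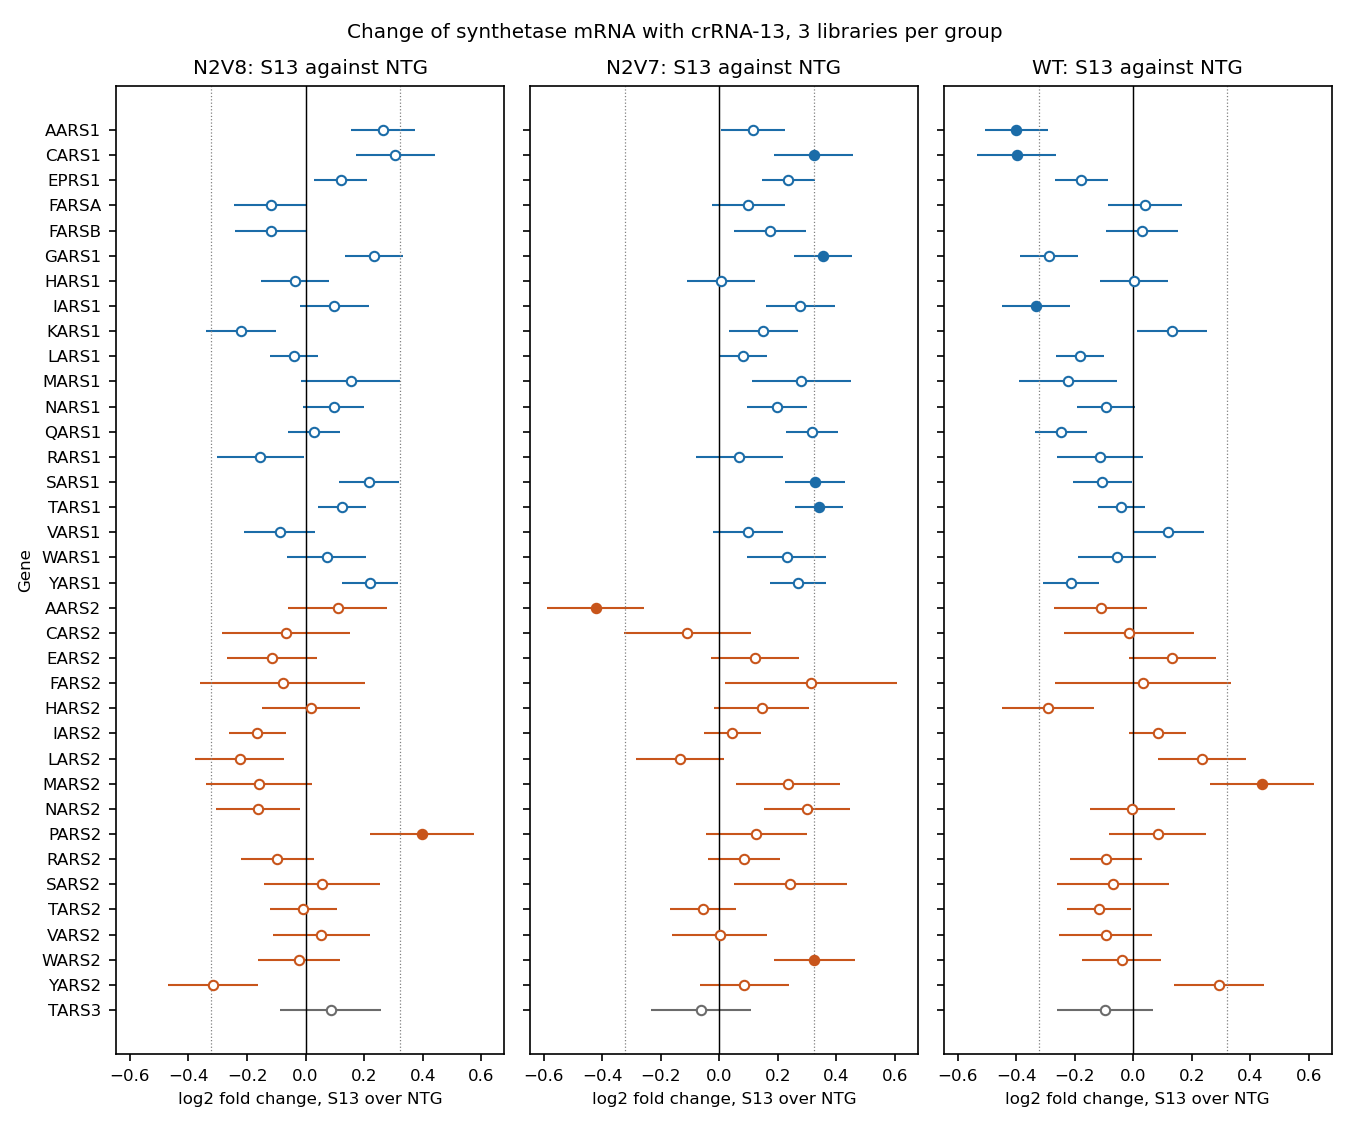
Log2 change of 36 of the 38 synthetases with crRNA S13 against NTG for N2V8, N2V7 and WT cells, with 95% intervals; filled points were called. The ATF4-linked enzymes have a median of 0.14 in N2V8, 0.27 in N2V7 and -0.20 in WT cells.

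The difference between effectors in the S13 effect was tested in the same fit, as N2V7 minus WT, N2V8 minus WT and N2V8 minus N2V7. Between N2V7 and WT, 12 members (31.6%) had a higher effect and 1 (2.63%) a lower one, beside 6.24% and 8.63% of all genes. Of these, 9 were among the 12 ATF4-linked enzymes, led by CARS1 (0.72 ± 0.10, adjusted p = 1.27e-07), GARS1 (0.64 ± 0.07) and IARS1 (0.61 ± 0.08). QARS1 (0.56), AARS1 (0.51), MARS1 (0.50), YARS1 (0.48), SARS1 (0.43), EPRS1 (0.41) and TARS1 (0.38) completed the cytosolic set, and the mitochondrial calls were HARS2 (0.44), WARS2 (0.36) and LARS2 (-0.37). WARS2 was not called without N2V7_S13 replicate 2 (0.31), and LARS2 was not called without N2V7_S13 replicate 2 (-0.315), N2V7_NTG replicate 1 (-0.31) or WT_S13 replicate 3 (-0.28), nor HARS2 without the factor of unwanted variation (adjusted p = 0.0615). Between N2V8 and WT, 7 members (18.4%) had a higher effect and 5 (13.2%) a lower one, beside 8.56% and 9.73% of all genes. The 7 were all ATF4-linked, with CARS1 (0.70 ± 0.10), AARS1 (0.66 ± 0.08) and GARS1 (0.52 ± 0.07) first and then IARS1, YARS1, MARS1 and SARS1 (0.32 to 0.43). SARS1 lay at the fold threshold and was not called in a fit without N2V7_S4 replicate 2, a library outside this comparison. With each compared library left out in turn, 9 to 14 members were called between N2V8 and WT. Among the 5 lower ones were YARS2 (-0.61 ± 0.11), MARS2 (-0.60 ± 0.13), LARS2 (-0.46 ± 0.11) and KARS1 (-0.35), of which MARS2 was not called without the factor of unwanted variation (adjusted p = 0.0566). Between N2V8 and N2V7, AARS2 had a higher effect (0.53 ± 0.12) and NARS2, YARS2, MARS2, KARS1 and WARS2 were among those with a lower one (-0.46 to -0.35), 2.63% and 15.8% of members beside 8.84% and 5.38% of all genes.

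Each of these differences contains the NTG groups, which themselves differed for the synthetases, so the S13 groups were also set against each other directly, a comparison added after these results were seen. Then 1, 2 and 0 members were called in place of 13, 12 and 7. CARS1 was higher in N2V7_S13 than in WT_S13 cells (0.49 ± 0.07, adjusted p = 1.59e-06), 2.63% of members beside 1.93% higher and 5.07% lower among all genes. It was also higher in N2V8_S13 than in WT_S13 cells (0.48 ± 0.07, adjusted p = 2.09e-06), as was FARS2 (0.50 ± 0.15, adjusted p = 0.0219), beside 1.16% higher and 1.15% lower among all genes. No member was called by edgeR between N2V8_S13 and N2V7_S13, where 8 had an unadjusted p under 0.05 and the shares over all genes were 1.65% and 0.176%. Ribosomal RNA took 4.166% to 4.419% of counts in N2V7_S13, 3.983% to 4.959% in N2V8_S13 and 1.787% to 2.303% in WT_S13 libraries, so that both variants lay clear of WT, and its part was not tested. AARS1 is an example of a gene called in the differences and not between the S13 groups. Its S13 libraries had 499.9, 518 and 477 CPM with N2V7, 489.6, 492 and 566 CPM with N2V8 and 485, 485 and 534 CPM with WT, which overlapped. Its NTG libraries had 469, 414 and 498 CPM with N2V7, 433, 429 and 428 CPM with N2V8 and 651, 664 and 668 CPM with WT, where every N2V7 and N2V8 library lay below every WT library. Between N2V7_S13 and WT_S13 cells its log2 difference was -0.01 with a 95% interval of -0.12 to 0.10.

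**Figure D3:**
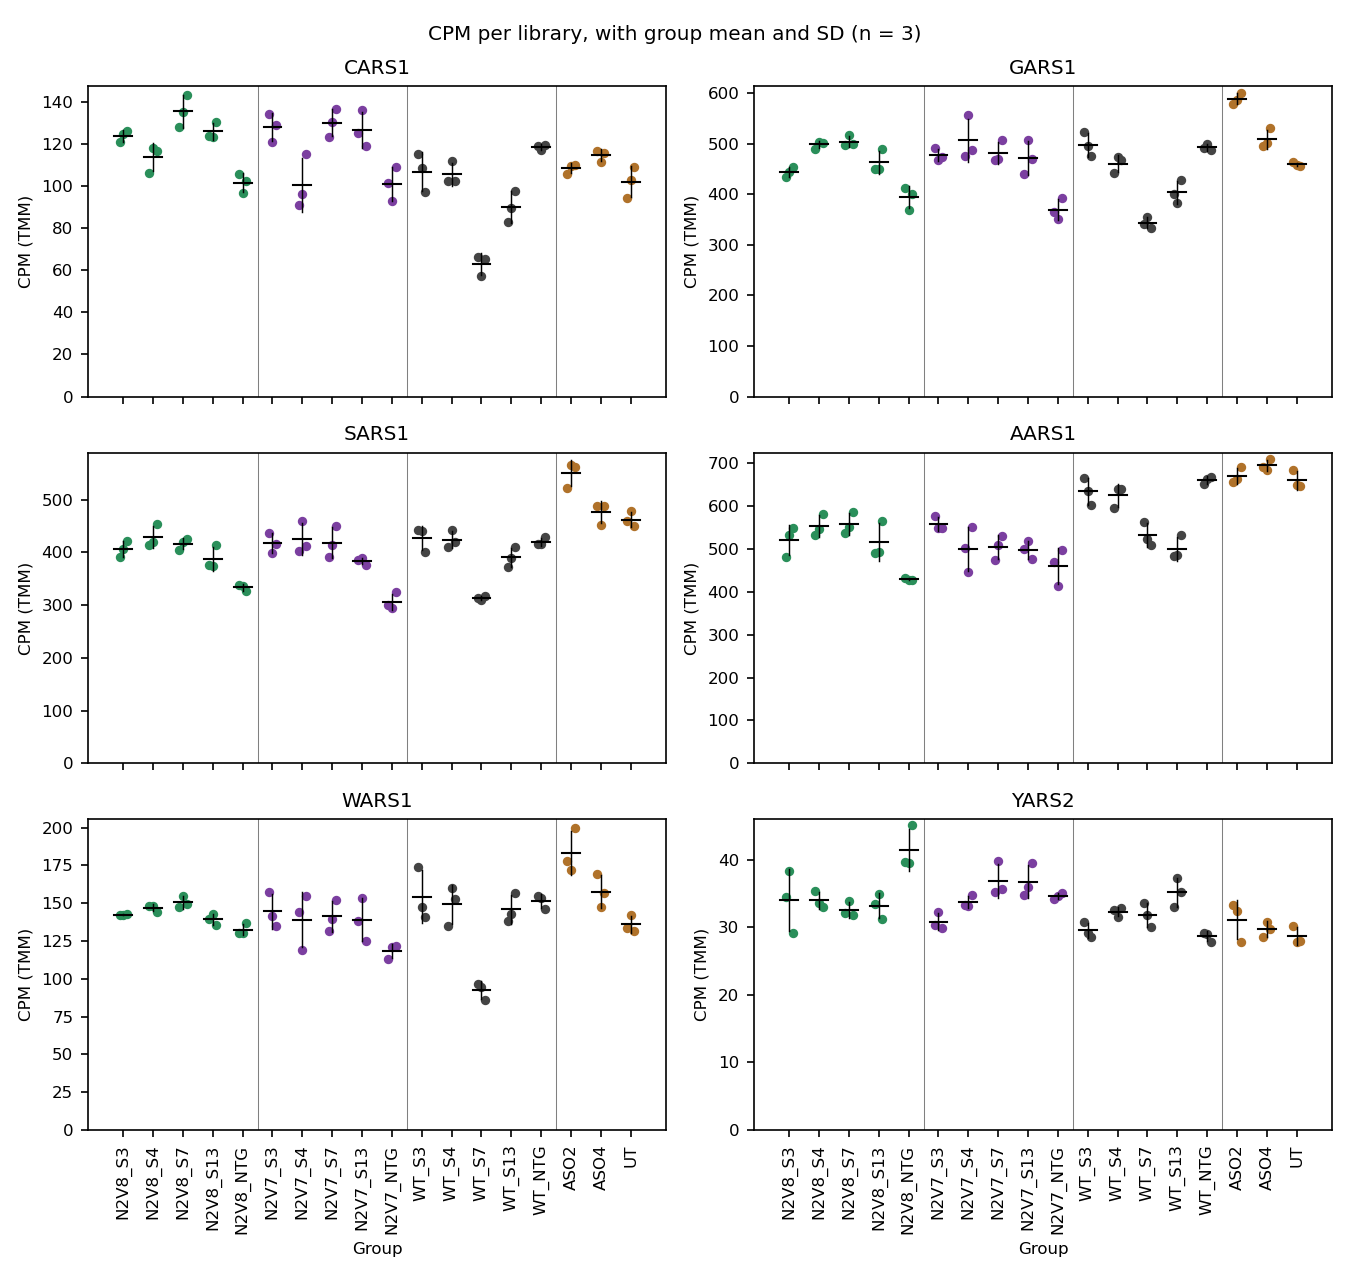
CPM of CARS1, GARS1, SARS1, AARS1, WARS1 and YARS2 in each library (points) with the group mean and SD (lines, n = 3) in all 18 groups. AARS1 lies between 414 and 498 CPM in the N2V7_NTG libraries and between 651 and 668 in WT_NTG, while its S13 libraries overlap between effectors.

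The NTG groups were therefore compared with untransfected cells. In WT_NTG cells no synthetase was called by edgeR, limma or DESeq2, and 12 had an unadjusted edgeR p under 0.05; the shares over all genes were 2.71% higher and 2.39% lower. Without UT replicate 2, the mitochondrial cysteine enzyme CARS2 passed (0.345, adjusted p = 0.0414). In N2V7_NTG cells 6 members (15.8%) fell and 2 (5.26%) rose, beside 9.95% lower and 10.9% higher among all genes. SARS1 had 300.3, 294 and 324 CPM in N2V7_NTG libraries, against 459.9, 478 and 449.5 CPM in UT libraries (-0.60 ± 0.05, adjusted p = 1.89e-14). QARS1, the glutamine enzyme of the multisynthetase complex, had 212, 209.6 and 230 CPM in N2V7_NTG and 344, 298 and 306 CPM in UT libraries (-0.54 ± 0.04). AARS1 fell to 460.3 ± 42.7 CPM in N2V7_NTG, against 660.3 ± 21.7 CPM in UT cells (-0.52 ± 0.05). The groups of all these genes were clear of each other. IARS1 (-0.45), EPRS1 (-0.36) and PARS2 (-0.33) fell too, while CARS2 (0.56 ± 0.11) and LARS2, the mitochondrial leucine enzyme (0.34 ± 0.08), rose. LARS2 was not called without N2V7_NTG replicate 1 (0.28), nor PARS2 without UT replicate 1 (-0.26) or UT replicate 2 (-0.30), by limma-trend (-0.31) or with no low-count filter (-0.322).

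In N2V8_NTG cells 5 members (13.2%) fell and 6 (15.8%) rose, beside 14.7% lower and 15.3% higher among all genes, so that both shares were near the background. AARS1 had 433, 429 and 428 CPM in N2V8_NTG libraries, against 685, 649 and 646 CPM in UT libraries (-0.62 ± 0.05, adjusted p = 5.88e-14). PARS2 (-0.53), SARS1 (-0.47), QARS1 (-0.40) and IARS1 (-0.35) also fell. Of the rises, 5 were among the 17 mitochondrial enzymes (29.4%, beside 15.3% of all genes). The median log2 change of these 17 was 0.127, with 9 positive and 8 negative. FARS2 averaged 9.78 ± 1.70 CPM in N2V8_NTG and 6.16 ± 0.296 CPM in UT cells (0.67 ± 0.15). YARS2 had 39.7, 39.6 and 45.2 CPM in N2V8_NTG and 30.2, 27.8 and 28.1 CPM in UT libraries (0.53 ± 0.08). CARS2 (0.54), NARS2 (0.41) and LARS2 (0.38) were the other mitochondrial rises, and KARS1, which encodes the lysine enzyme of both compartments, was the cytosolic one (0.41 ± 0.06). All 12 ATF4-linked enzymes had a negative log2 change in both variants' NTG cells, with medians of -0.26 for N2V7 and -0.19 for N2V8, and 10 of 12 a positive one in WT_NTG cells (median 0.07). All 3 comparisons share the UT libraries. UT cells received no plasmid, so the transfection and the effector or crRNA cannot be told apart in any of them.

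Among the additional crRNAs with the native enzyme, S7 was accompanied by the largest shifts of the synthetases. The S13, S3, S4 and S7 comparisons of an effector share its NTG libraries. In WT_S7 cells 11 members (28.9%) fell and 1 (2.63%) rose, beside 9.83% lower and 9.37% higher among all genes. All 8 cytosolic members that fell were ATF4-linked. CARS1 had 66.5, 57.1 and 65.5 CPM in WT_S7 libraries, against 119, 117 and 119.7 CPM in WT_NTG libraries, a 1.88-fold lower level (-0.91 ± 0.07, adjusted p = 4.85e-15). WARS1, the cytosolic tryptophan enzyme, which interferon also induces, had 96.7, 94.8 and 85.8 CPM in WT_S7 and 155, 154 and 146 CPM in WT_NTG libraries (-0.71 ± 0.07, adjusted p = 1.09e-11). MARS1, the methionine enzyme of the complex, had 212, 199 and 199.8 CPM in WT_S7 and 309, 295 and 290 CPM in WT_NTG libraries (-0.55 ± 0.08). No library of one group reached into the other for these 3 genes. IARS1 (-0.55), GARS1 (-0.52), YARS1 (-0.42), SARS1 (-0.42) and EPRS1 (-0.42) fell as well, as did TARS3 (-0.35) and the mitochondrial VARS2 (-0.50) and HARS2 (-0.48). TARS3 was not called without WT_S7 replicate 1 (-0.295) or replicate 2 (-0.32), nor without the factor of unwanted variation (adjusted p = 0.09). EARS2, the mitochondrial glutamate enzyme, was the sole member that rose, with 91.2, 93.1 and 81.8 CPM in WT_S7 and 58.4, 67.7 and 61.2 CPM in WT_NTG libraries (0.50 ± 0.07). As a set, the 12 ATF4-linked enzymes had a median of -0.42 on the log2 scale and the other 8 cytosolic enzymes of 0.01. Ribosomal RNA took 1.764% to 2.708% of counts in WT_S7 and 1.713% to 3.154% in WT_NTG libraries, ranges that overlapped.

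With S3 and S4 the native enzyme was accompanied by a single call each, MARS2, which rose to 21.3 ± 0.408 CPM in WT_S3 and 21.5 ± 0.684 CPM in WT_S4 cells, against 16.7 ± 1.28 CPM in WT_NTG cells (0.35 and 0.36). This is 2.63% of members, beside 2.09% higher and 0.650% lower over all genes for S3 and 2.02% higher and 0.670% lower for S4. Both calls were lost without WT_NTG replicate 3 (0.30 for S3 and 0.32 for S4) and without the factor of unwanted variation (adjusted p = 0.153 for S3 and 0.128 for S4).

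With N2V7, 4, 4 and 5 of the 20 cytosolic synthetases rose in S3, S4 and S7 cells. VARS1 fell in S4 cells, a call lost without N2V7_S4 replicate 2. The median of the 8 cytosolic enzymes without the ATF4 link was -0.10 on the log2 scale in N2V7_S3, 0.02 in N2V7_S4 and 0.13 in N2V7_S7 cells. In N2V7_S3 cells SARS1 (0.45 ± 0.05), GARS1 (0.37 ± 0.05), CARS1 (0.34) and YARS1 (0.34) rose, 10.5% of members beside 3.13% higher and 1.02% lower among all genes. In N2V7_S7 cells 6 members (15.8%) rose and 1 (2.63%) fell, beside 5.36% and 8.90% of all genes. SARS1 had 391, 414 and 450.3 CPM in N2V7_S7 libraries, against 300.3, 294 and 324 CPM in N2V7_NTG libraries (0.45 ± 0.05, adjusted p = 5.88e-10). GARS1 had 468, 469 and 507 CPM in N2V7_S7 and 364, 352 and 392 CPM in N2V7_NTG libraries (0.38 ± 0.05). In UT cells SARS1 averaged 462 CPM and GARS1 459 CPM. CARS1 (0.36), TARS1 (0.35), MARS1 (0.35) and FARS2 (0.53) were the other rises, and AARS2 fell (-0.42). CARS1 was not called without N2V7_NTG replicate 2 in either comparison (0.28 for S3 and 0.31 for S7) nor without N2V7_S3 replicate 1 (0.30), and FARS2 was not called without N2V7_NTG replicate 1 (0.41, adjusted p = 0.0705). In N2V7_S4 cells 6 members rose and 5 fell (15.8% and 13.2%), beside 9.84% and 14.7% of all genes. TARS1 (0.51 ± 0.04), NARS1 (0.48), SARS1 (0.47), GARS1 (0.45), WARS2 (0.40) and RARS2 (0.36) rose. AARS2 (-0.61 ± 0.08), VARS2 (-0.60), MARS2 (-0.43) and VARS1 (-0.43) were among those that fell. This comparison rested on N2V7_S4 replicate 2, the library that stood apart. Without it 5 members rose (GARS1, SARS1, TARS1, WARS1 and WARS2) and AARS2 fell. NARS1 (0.26), VARS2 (-0.31), VARS1 and RARS2 lost their calls, and MARS2 turned to 0.06 (adjusted p = 0.781). In a fit of only the compared libraries NARS1, AARS2, VARS2 and MARS2 were not called (adjusted p of 0.112 to 0.706), nor MARS2 without the factor of unwanted variation (adjusted p = 0.307).

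With N2V8, PARS2 rose with every crRNA, by 0.49 on the log2 scale in S3, 0.39 in S4 and 0.46 in S7 cells, all set against the same N2V8_NTG libraries. PARS2 averaged 21.7, 20.2 and 21.1 CPM in these cells, 15.4 CPM in N2V8_NTG cells and 22.2 CPM in UT cells. In N2V8_S3 cells it was the only call, 2.63% of members beside 2.15% higher and 0.917% lower among all genes. In N2V8_S4 cells AARS1 had 532, 548 and 581 CPM, against 433, 429 and 428 CPM in N2V8_NTG libraries (0.36 ± 0.05, adjusted p = 6.71e-07). In UT cells AARS1 averaged 660 CPM. SARS1 (0.36), EPRS1 (0.34) and GARS1 (0.34) rose beside it, so that 13.2% of members were higher and none lower, beside 2.95% and 3.19% of all genes. In N2V8_S7 cells 4 members (10.5%) rose and 2 (5.26%) fell, beside 3.85% and 3.49% of all genes. CARS1 had 128, 135 and 143 CPM in N2V8_S7 libraries, against 106, 96.9 and 102 CPM in N2V8_NTG libraries (0.41 ± 0.07, adjusted p = 5.07e-06). In UT cells CARS1 averaged 102 CPM. AARS1 (0.38) and GARS1 (0.36) rose, and the mitochondrial LARS2 (-0.35) and YARS2 (-0.34) fell. Calls lost with a library left out were those of GARS1 (0.30 in S4 and 0.31 in S7) and of PARS2 in S4 (0.31) without N2V8_NTG replicate 2, of LARS2 without N2V8_S7 replicate 1 (-0.29) and of YARS2 without N2V8_NTG replicate 3 (-0.28).

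**Figure D4:**
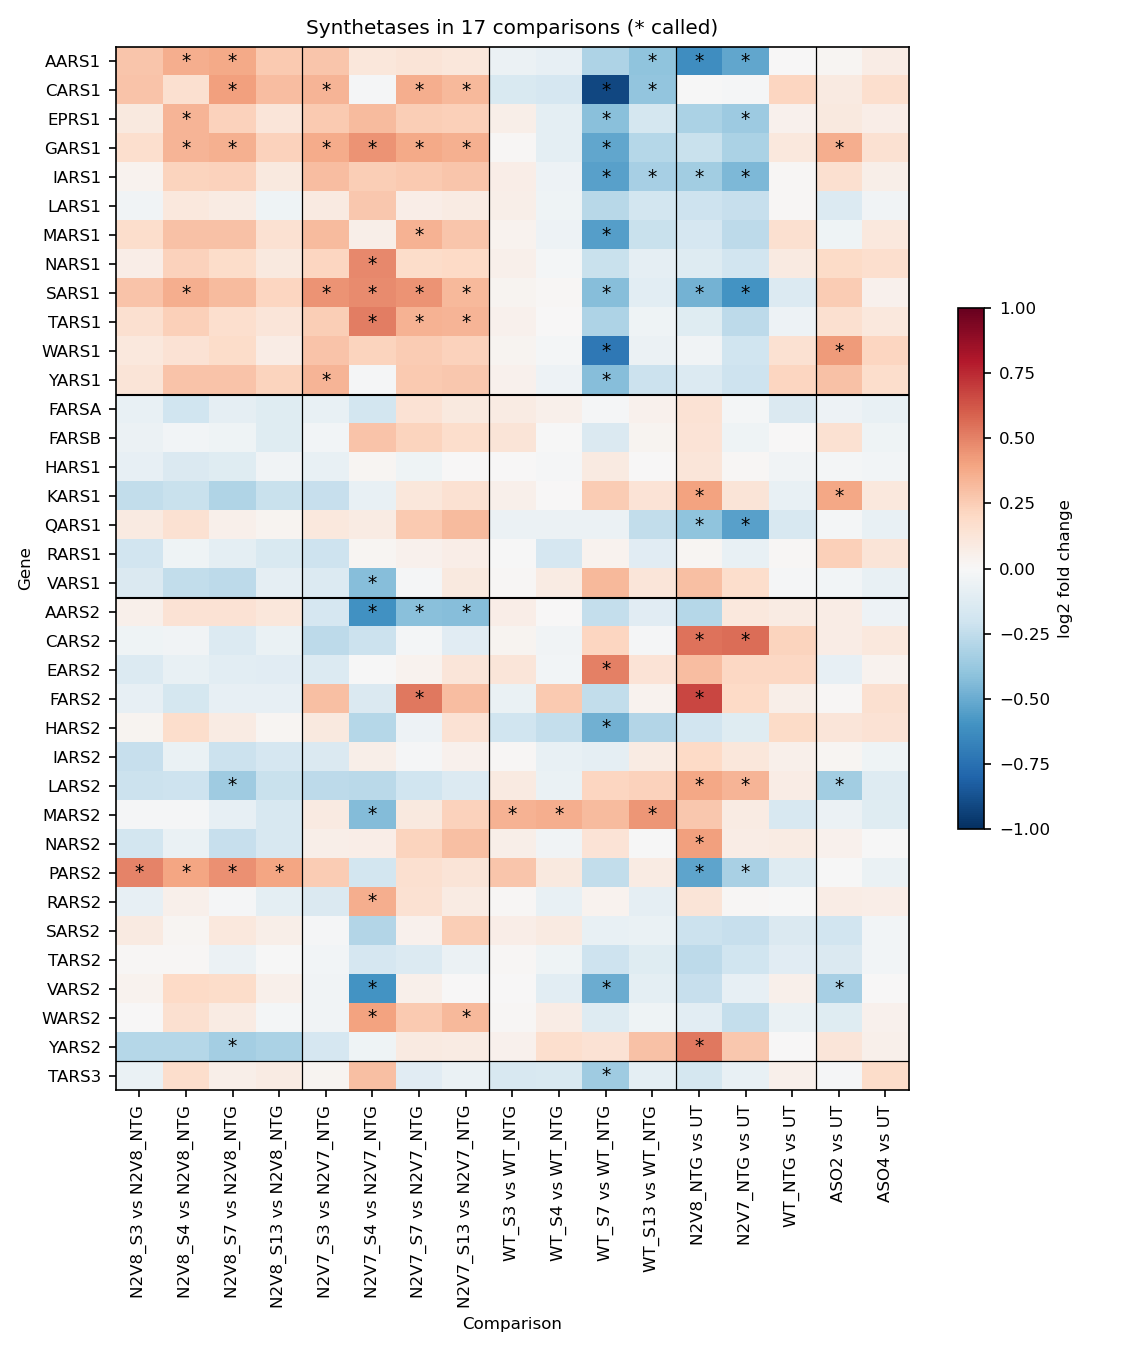
Log2 change of 36 of the 38 synthetases (rows, by compartment) in the 17 comparisons with NTG or UT cells (columns), with called cells marked. The ATF4-linked rows are lower in WT_S7 (median -0.42), in WT_S13 (-0.20) and in the NTG cells of N2V7 (-0.26) and N2V8 (-0.19), and have positive medians in the S3, S4 and S7 cells of both variants (0.15 to 0.30).

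The S7 effect was then compared between effectors, a test added after the results were seen. Between N2V7 and WT, 18 members (47.4%) had a higher effect and 3 (7.89%) a lower one, beside 13.0% and 14.7% of all genes. All 12 ATF4-linked enzymes were among the 18, with a median of 0.75, beside 0.08 for the other 8 cytosolic enzymes. CARS1 (1.27 ± 0.10, adjusted p = 1.54e-15), WARS1 (0.97 ± 0.10) and GARS1 (0.90 ± 0.07) led. Between N2V8 and WT, 17 (44.7%) had a higher effect and 7 (18.4%) a lower one, beside 15.5% and 15.8% of all genes. Again all 12 ATF4-linked enzymes were among the higher (median 0.73), with CARS1 (1.32 ± 0.10), WARS1 (0.90 ± 0.10) and GARS1 (0.88 ± 0.07) first. Between N2V8 and N2V7 none of the 12 was called by edgeR, and AARS2 had a higher effect (0.56), while FARS2, NARS2, YARS2 and KARS1 were among those with a lower one (-0.61 to -0.41), beside 10.8% and 8.83% of all genes.

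The S7 groups were also set against each other directly. In N2V7_S7 against WT_S7 cells 11 members (28.9%) were higher and 1 (2.63%) lower, beside 12.7% and 13.8% of all genes. Ribosomal RNA took 2.997% to 4.861% of counts in N2V7_S7 and 1.764% to 2.708% in WT_S7 libraries, which did not overlap, and its part was not tested. In N2V8_S7 libraries it took 2.216% to 3.578%, which overlapped with WT_S7. CARS1 had 124, 130.4 and 136 CPM in N2V7_S7 libraries, against 66.5, 57.1 and 65.5 CPM in WT_S7 libraries, 2.06-fold higher (1.04 ± 0.07, adjusted p = 8.26e-18). FARS2 averaged 10.2 ± 0.69 CPM in N2V7_S7 and 5.42 ± 0.599 CPM in WT_S7 cells (0.91 ± 0.15). WARS1 had 132, 139.8 and 152 CPM in N2V7_S7 and 96.7, 94.8 and 85.8 CPM in WT_S7 libraries (0.61 ± 0.07). GARS1, MARS1, TARS1, SARS1, VARS2 and IARS1 were also higher by 0.35 to 0.49 on the log2 scale, and EARS2 was lower (-0.47). In N2V8_S7 against WT_S7 cells 10 members (26.3%) were higher and 1 lower, beside 11.0% and 9.24% of all genes. CARS1 had 128, 135 and 143 CPM in N2V8_S7 libraries (1.10 ± 0.07, adjusted p = 1.17e-18), and FARS2 (0.77), WARS1 (0.71), GARS1 (0.55) and MARS1 (0.52) followed, with EARS2 lower (-0.51). No member was called by edgeR between N2V8_S7 and N2V7_S7, where 7 had an unadjusted p under 0.05 and the shares over all genes were 3.14% and 1.12%.

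**Figure D5:**
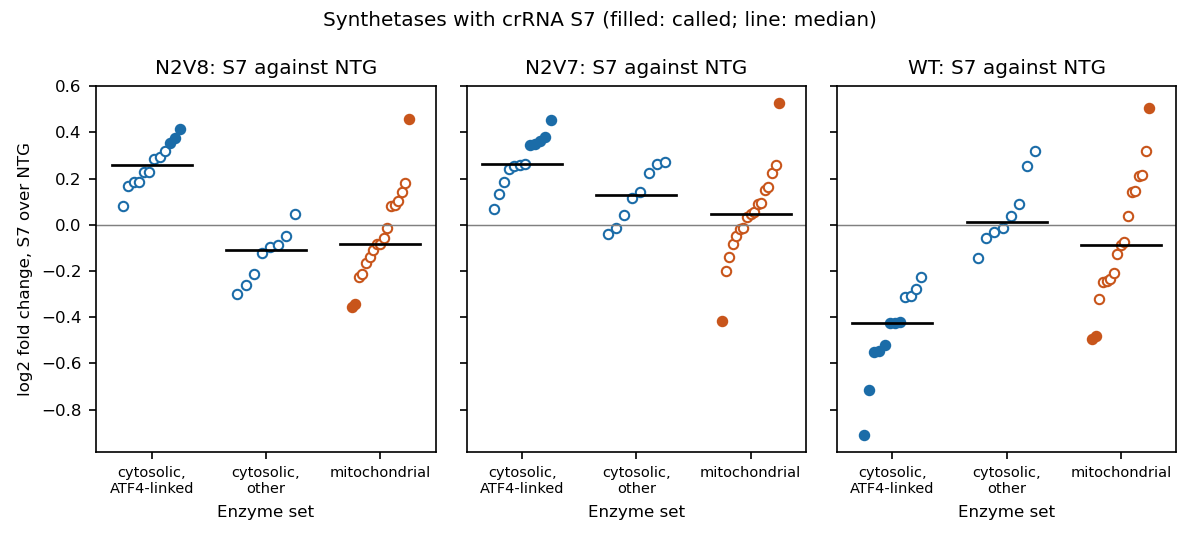
Log2 changes of the ATF4-linked and other cytosolic and the mitochondrial synthetases (points, with medians as lines) with crRNA S7 against NTG for each effector. The ATF4-linked enzymes have a median of 0.26 in N2V8, 0.26 in N2V7 and -0.42 in WT cells, and the other cytosolic enzymes of -0.11 in N2V8, 0.13 in N2V7 and 0.01 in WT cells.

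The oligonucleotides carry no effector protein. They were set against untransfected cells, so their delivery and the oligonucleotide itself cannot be told apart. In ASO2 cells WARS1 rose, with 178, 172 and 199.9 CPM in ASO2 libraries, against 134, 142 and 132 CPM in UT libraries (0.43 ± 0.07, adjusted p = 1.66e-06). KARS1 (0.39 ± 0.06) and GARS1 (0.36 ± 0.05) rose, and LARS2 (-0.35 ± 0.08) and VARS2 (-0.33 ± 0.08) fell. These are 7.89% of members higher and 5.26% lower, beside 7.07% and 9.03% of all genes, so the shares were near the background. LARS2 (-0.32) and VARS2 (-0.30) were not called without ASO2 replicate 3, nor VARS2 without UT replicate 2 (-0.25), without the factor of unwanted variation (adjusted p = 0.0514) or by limma-trend (-0.32). In ASO4 cells no member was called by edgeR, limma or DESeq2, and 8 had an unadjusted edgeR p under 0.05, beside 0.930% higher and 1.22% lower among all genes.

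The list of stress response readouts, of 10 genes of the ATF4 pathway, was counted beside the synthetases. It was also chosen with earlier results of these data known. In WT_S13 cells 6 fell, among them TRIB3, a pseudokinase (-0.93 ± 0.14), ASNS, the asparagine synthetase (-0.62 ± 0.12; 601 CPM in WT_S13 and 926 CPM in WT_NTG cells), CHAC1, which degrades glutathione (-0.51), ATF3 (-0.49), SESN2 (-0.45) and PPP1R15A (-0.37). The 6 are 60% of the list, beside 4.24% lower among all genes. In N2V7_S13 cells ASNS (0.72), PSAT1 of serine synthesis (0.49) and ATF3 (0.35) rose, and in N2V8_S13 cells CHAC1 (0.89), ASNS (0.72), PSAT1 (0.42) and SESN2 (0.35) did. These are 30% and 40% of the list, beside 3.67% and 1.72% higher among all genes. Against untransfected cells 9 of the 10 fell in N2V7_NTG and 8 in N2V8_NTG cells, with TRIB3 lowest in both (-1.61 and -1.61), and 0 of 10 were called in WT_NTG cells. Among all genes 9.95% were lower in N2V7_NTG, 14.7% in N2V8_NTG and 2.39% in WT_NTG cells. In WT_S7 cells 8 fell, led by TRIB3 (-1.39), DDIT3 (-1.29) and ASNS (-1.28), while 6 rose in N2V7_S7 and 8 in N2V8_S7 cells, with ASNS at 0.92 and 1.13. Among all genes 9.83% were lower in WT_S7, 5.36% higher in N2V7_S7 and 3.85% higher in N2V8_S7 cells. Elsewhere the calls of the lists parted. In N2V8_S3 as in N2V8_S13 cells 4 readouts rose and no cytosolic synthetase was called by edgeR. The direction was shared there, since 11 of the 12 ATF4-linked enzymes had a positive log2 change in each. Their medians were 0.147 and 0.139, and their highest values, 0.285 and 0.307, lay below the fold threshold. In ASO4 cells 1 readout rose and no synthetase was called, and in WT_S3 and WT_S4 cells MARS2 was called beside 0 of 10 readouts. Over all genes, 2.15% were higher in N2V8_S3 and 0.930% in ASO4 cells. Between the S13 groups set against each other directly, 0 of 10 were called. Of the S7 groups set against WT_S7 directly, N2V7_S7 and N2V8_S7 each had 6 of 10 higher. The shares of all genes higher were 12.7% and 11.0%. ATF4 RNA itself was called in N2V7_NTG cells alone (-0.34) among the 17 comparisons with NTG or UT cells. The part of these genes in the synthetase changes was not tested.

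Of 18 partners of the synthetases, AIMP2 (0.40 ± 0.08) and EEF1E1 (0.37 ± 0.11), both scaffold proteins of the multisynthetase complex, and the mitochondrial elongation factor TSFM (0.41 ± 0.09) rose in WT_S13 cells, 16.7% of the partners beside 6.53% of all genes. The elongation factor subunit EEF1B2 rose in N2V7_S13 cells (0.35 ± 0.07), 5.56% beside 3.67%, and in N2V8_S13 cells no partner was called by edgeR. In WT_S7 cells, where 3 of the 8 complex enzymes fell, AIMP2 (0.34), EEF1E1 (0.54) and TSFM (0.37) rose, and the selenocysteine enzyme SEPSECS (-0.42) and the proofreading enzyme DTD2 (-0.36) fell, 16.7% higher and 11.1% lower beside 9.37% and 9.83% of all genes. In N2V7_NTG cells EEF1A1, which delivers charged tRNAs to the ribosome, fell to 16170 CPM, against 23170 CPM in UT cells (-0.52 ± 0.05), together with EEF1D (-0.47), EEF1G (-0.41) and PSTK (-0.49), while AIMP2 rose (0.37), 22.2% lower and 5.56% higher beside 9.95% and 10.9% of all genes. In N2V8_NTG cells AIMP2 (0.56), TSFM (0.51) and TUFM (0.36) rose, 16.7% of the partners and near the 15.3% of all genes.

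Across the 17 comparisons with NTG or UT cells, GARS1 (higher in 7 and lower in 1) and SARS1 (higher in 5 and lower in 3) were called equally often and the most among the members, and CARS1 and PARS2 (each higher in 4 and lower in 2) came next. These counts share NTG and UT libraries between comparisons and are not independent. GARS1 and SARS1, the members called in 8 or more comparisons, are 5.26% of members, beside 1.79% of all genes. IARS1, QARS1, AARS2 and VARS2 were called only lower, in 4, 2, 3 and 3 comparisons, and TARS1 only higher, in 3. These directions are a description, given without a share over all genes. There were 9 members (23.7%) called in none, beside 32.2% of all genes, among them the cytosolic FARSA, FARSB, HARS1, LARS1 and RARS1 and the mitochondrial IARS2, SARS2 and TARS2. HARS1 and HARS2 are divergent neighbours whose starts lie 84 bases apart on chromosome 5, and HARS2 alone was called, in WT_S7 cells.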

How the data were processed

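Poly(A)-selected, stranded RNA-seq libraries of HEK293T cells, 54 in 18 groups of 3 named from the labels, were analysed. The treatment label of the N2V8_S13 samples reads N2V87, and their titles, which give N2V8, were used. Values are the authors' estimated counts for each gene. Their reads had been assigned to spliced NCBI transcripts by Salmon (version 1.5.2), GRCh38 serving as decoy, and summarized by tximport's lengthScaledTPM option, which scales counts for transcript length and keeps reads shared between similar genes. A further deposited column (unit: other), a TRUE or FALSE mark of genes the authors kept, was not used. Counts were rounded. Genes with low counts were removed with filterByExpr in edgeR (version 4.0.16; R version 4.3.3), which left 15378 genes and took away 0.0723% of counts. Levels are CPM after TMM scaling. All libraries were fitted together by edgeR's quasi-likelihood F test, with group terms plus 1 residual-based factor (RUVr) for unwanted variation, which took 26.9% of the residual variance, 96.3% of its squared weight in N2V7_S4. A member was called at a fold change over 1.25 and a Benjamini-Hochberg adjusted p under 0.05 over all genes and the comparisons of a family: S13 against NTG (3), their differences (3), NTG against UT (3), additional crRNAs against NTG (9) and oligonucleotides against UT (2). Direct comparisons of S13 or S7 groups, and S7 differences, were added later. The fits were tested on simulated data. Alternatives were limma-trend (version 3.58.1), DESeq2 (version 1.42.0) and its size factors, no factor, no filter, a replicate block, adjustment within a comparison, a threshold of 0.01, only the compared libraries, and each library left out, with the dispersion trend held. In each comparison, up to 4 called members per compartment (3 outside the S13 comparisons) were taken as the named ones and carried through the alternatives; the study calls its samples independent biological replicates. The members and the gene lists were chosen with earlier results of these data known. Promoter windows came from RefSeq. The values of 2 members are not reported here, although counts, medians and sums include them.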

Additional observations from a re-analysis of the deposited data

Results flagged for a closer look

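The S13 effect on the synthetases differed between effectors in tests of the difference itself, each with a fold of the difference over 1.25 and an adjusted p under 0.05. In N2V7 minus WT, the effect was higher for CARS1 (0.72), GARS1 (0.64), IARS1 (0.61), QARS1 (0.56), AARS1 (0.51), MARS1 (0.50), YARS1 (0.48), SARS1 (0.43), EPRS1 (0.41), TARS1 (0.38), HARS2 (0.44) and WARS2 (0.36) on the log2 scale and lower for LARS2 (-0.37). In N2V8 minus WT, it was higher for CARS1 (0.70), AARS1 (0.66), GARS1 (0.52), IARS1 (0.43), YARS1 (0.43), MARS1 (0.38) and SARS1 (0.32) and lower for YARS2 (-0.61), MARS2 (-0.60), LARS2 (-0.46) and KARS1 (-0.35). In N2V8 minus N2V7, it was higher for AARS2 (0.53) and lower for NARS2 (-0.46), YARS2 (-0.40), MARS2 (-0.39), KARS1 (-0.37) and WARS2 (-0.35). Set directly against each other, the S13 groups differed in 1, 2 and 0 members in the same 3 pairs.

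The S7 effect also differed between effectors, in tests added after the results were seen. In N2V7 minus WT, the up to 3 largest differences in each compartment were CARS1 (1.27), WARS1 (0.97), GARS1 (0.90), FARS2 (0.77), VARS2 (0.55) and EARS2 (-0.47). In N2V8 minus WT, they were CARS1 (1.32), WARS1 (0.90), GARS1 (0.88), PARS2 (0.71), VARS2 (0.68), EARS2 (-0.61) and TARS3 (0.41). In N2V8 minus N2V7, they included FARS2 (-0.61), AARS2 (0.56), NARS2 (-0.45) and KARS1 (-0.41).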

How the results depend on the processing

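Of 1287 values of named synthetases under the alternatives, 1226 kept their direction and their call, 60 kept the direction but lost the call, and 1 reversed: MARS2 in N2V7_S4, which ranged between -0.771 and 0.059 with each library left out (0.059 without N2V7_S4 replicate 2). DESeq2, its size factors, adjustment within each comparison and a threshold of 0.01 kept all 79 values each; limma-trend lost 3 calls, no low-count filter 1, no factor of unwanted variation 8, and fits of only the compared libraries 7. The count of members called for N2V7_S13 was 6, and 3 in the fit of only the compared libraries. With each library left out in turn, it was 1 to 9 for N2V7_S13 (main 6), 1 to 3 for N2V8_S13 (main 1), 0 to 1 for WT_NTG against UT (main 0) and 3 to 5 for ASO2 (main 5). Set directly against each other, S13 groups gave 1, 2 and 0 members in place of 13, 12 and 7, and S7 groups 12, 11 and 0 in place of 21, 24 and 6, in a contrast of the same fit that does not contain the NTG groups; this choice was made after seeing the data. No pairing of the libraries by replicate number was detected, since in 0 of 17 comparisons did every same-numbered pair correlate above 0.1. This rule, taken over all tested genes, cannot show whether a part of the genes shares a batch. The fit with the replicate block kept 79 of 79 named values, with 1, 6 and 4 members called for the S13 effect of N2V8, N2V7 and WT. DESeq2 size factors moved the members' CPM by ratios of 0.9909 to 1.005. Changes near the fold threshold rest on 3 libraries a group.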
